A study of Homo sapiens with 4 samples.

Results

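The regions described here are the H3K9ac regions in the 2 main clusters of replication-dependent histone genes, in T98G glioblastoma cells. A region was taken when its midpoint lay on chromosome 6 from 25700000 to 28300000 (the HIST1 window, 2.6 Mb) or on chromosome 1 from 149750000 to 149900000 (the HIST2 window, 150 kb), on build hg19. They number 451 of 66131 regions over both lists. The shRBBP4 library held 226 regions in HIST1 and 18 in HIST2, of 39303 in all, and the shNT library held 191 and 16, of 26828. Both libraries are chromatin immunoprecipitations for histone H3 acetylated at lysine 9 from T98G cells, a long-established line derived from a human glioblastoma, taken at passage 4. The shRBBP4 cells carried a lentiviral shRNA against RBBP4 and the control cells a lentiviral shNT construct, and the files hold no measure of RBBP4 itself. Each shRNA has 1 H3K9ac library, so no difference has a replicate check, and intervals below cover counting error only. The inputs were not analysed here, and the number of reads behind either list is unknown. Whether the cells were a pool or 1 clone is not given in the sources used here.

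Replication-dependent histone genes encode the core histones H2A, H2B, H3 and H4 and the linker histone H1, and are transcribed strongly in S phase, when new chromatin is assembled. They are short and lack introns, and most lie in clusters as many similar copies. H3K9ac is a mark of active promoters. RBBP4 binds histones as a subunit of the chromatin assembly factor CAF-1 and of several deacetylase complexes, so the comparison asks how the mark lay over the genes for its own substrates in shRBBP4 cells.

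A gene annotation of hg19 was not used here, so regions are named by position and none was assigned to a gene. RefSeq's GRCh38.p14 gene table, used for names and order only, lists 66 coding histone genes in these clusters, 55 on chromosome 6 and 11 on chromosome 1. On chromosome 6 they are 12 H2A, 15 H2B, 10 H3, 12 H4 and 6 H1 genes. In gene order the chromosome 6 genes form runs that other coding genes interrupt. After the pair H2AC1 and H2BC1 come 9 genes from H1-1 to H1-2, 23 from H4C3 to H4C8, 5 from H2BC11 to H2AC12 and 16 from H2BC13 to H2BC17. The run that ends at H4C8 is followed by 9 other coding genes, from the butyrophilin gene BTN3A2 to the zinc finger gene ZNF322. The stretch also holds 98 tRNA genes. A region in the windows can therefore belong to a gene that is not a histone gene, and the label could not be checked against the regions.

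The promoter of the first gene of each family with a sequence is given with its matches to promoter motifs marked. H2AC1 and H2BC1, a divergent pair, are known mainly from testis. Each line gives 250 bases before to 50 after the RefSeq start (GRCh38.p14), 5′ to 3′ on the gene's strand, with matches on either strand in capitals to TATAAA (the TATA box), CCAAT (the CCAAT box) or ATTTGCAT (the octamer). The first 5 are from chromosome 6, and H3C13 and H4C14, which begin the H3 and H4 genes of chromosome 1, stand for HIST2. H4C14 holds no match to any of these motifs.
H3C1: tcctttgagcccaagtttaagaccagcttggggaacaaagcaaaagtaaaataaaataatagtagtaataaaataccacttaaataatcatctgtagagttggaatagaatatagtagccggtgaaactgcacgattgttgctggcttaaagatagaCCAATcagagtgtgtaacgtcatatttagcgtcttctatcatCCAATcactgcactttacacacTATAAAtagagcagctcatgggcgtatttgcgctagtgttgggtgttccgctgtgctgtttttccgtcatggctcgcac
H4C2: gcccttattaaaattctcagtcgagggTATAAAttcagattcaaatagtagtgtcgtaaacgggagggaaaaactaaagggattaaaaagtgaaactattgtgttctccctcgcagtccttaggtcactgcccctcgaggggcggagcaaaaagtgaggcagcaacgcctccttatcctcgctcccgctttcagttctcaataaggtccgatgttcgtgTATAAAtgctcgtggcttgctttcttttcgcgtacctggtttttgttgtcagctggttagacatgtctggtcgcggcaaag
H2AC1: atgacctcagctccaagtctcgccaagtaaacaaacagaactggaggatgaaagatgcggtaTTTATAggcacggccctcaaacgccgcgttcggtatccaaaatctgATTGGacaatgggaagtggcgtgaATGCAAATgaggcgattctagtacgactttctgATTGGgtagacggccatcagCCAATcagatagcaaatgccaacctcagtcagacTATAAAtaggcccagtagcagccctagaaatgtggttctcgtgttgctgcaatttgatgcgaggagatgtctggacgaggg
H2BC1: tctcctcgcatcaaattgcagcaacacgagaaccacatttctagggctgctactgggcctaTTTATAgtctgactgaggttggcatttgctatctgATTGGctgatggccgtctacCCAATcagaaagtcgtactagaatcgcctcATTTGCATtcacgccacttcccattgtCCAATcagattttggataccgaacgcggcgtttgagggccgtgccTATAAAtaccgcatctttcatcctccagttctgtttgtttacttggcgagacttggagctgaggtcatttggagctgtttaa
H1-1: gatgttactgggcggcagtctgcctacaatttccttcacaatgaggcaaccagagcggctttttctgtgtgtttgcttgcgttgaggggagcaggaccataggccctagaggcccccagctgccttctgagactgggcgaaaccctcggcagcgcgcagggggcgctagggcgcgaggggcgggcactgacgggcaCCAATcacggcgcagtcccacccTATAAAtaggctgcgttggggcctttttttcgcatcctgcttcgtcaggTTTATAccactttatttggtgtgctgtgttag
H3C13: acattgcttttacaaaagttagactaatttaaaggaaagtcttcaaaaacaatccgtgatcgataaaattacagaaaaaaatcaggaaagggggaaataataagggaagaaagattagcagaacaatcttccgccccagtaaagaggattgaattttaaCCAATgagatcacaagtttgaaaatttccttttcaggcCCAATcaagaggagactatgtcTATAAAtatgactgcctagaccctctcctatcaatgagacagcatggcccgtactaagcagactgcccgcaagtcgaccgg
H4C14: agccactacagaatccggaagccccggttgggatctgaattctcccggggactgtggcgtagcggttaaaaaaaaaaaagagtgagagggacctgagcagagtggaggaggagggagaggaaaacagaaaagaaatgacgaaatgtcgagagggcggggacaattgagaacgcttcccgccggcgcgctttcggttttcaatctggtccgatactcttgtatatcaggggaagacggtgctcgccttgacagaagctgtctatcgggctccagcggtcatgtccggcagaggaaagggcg

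TATAAA occurred in 41 of the 61 histone promoters with a sequence (67.2%), against 11.5% of all 35116 promoters in the table. On the gene's own strand it occurred in 36, and in 31 of these the first match, read 5′ to 3′, began 20 to 40 bases before the start. Later matches in the same promoter, as in H4C2 above, were not placed, so 31 is a minimum. CCAAT occurred in 52 of 61 (85.2%, against 34.6% of all promoters). All 17 H2B, 15 H2A, 11 H3 and 6 H1 promoters held CCAAT, and 3 of 12 H4 promoters did. ATTTGCAT, known from H2B promoters, occurred in 14 of 17 H2B and 11 of 15 H2A promoters, in 1 of 11 H3 promoters and in no H4 or H1 promoter, against 1.77% of all promoters. No match to 1 of these motifs overlapped a match to another. These counts are not independent, because neighbouring genes share bases. H2AC1 and H2BC1, printed above, are read outward from the same DNA, and 286 bases of their windows are reverse complements. Of 11 pairs with such a run of at least 200 bases, 10 joined an H2A and an H2B gene. The other, H3C4 with H2BC7, repeats the pair H2AC7 with H2BC7, because the first of the 2 windows listed for H3C4, used here, is identical to that of H2AC7. That window is also the 1 H3 match to ATTTGCAT, and the other H3C4 window does not hold it.

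Some HIST2 genes exist as near-identical copies. The promoter windows of H4C14 and H4C15 are identical over all 300 bases. H3C14 and H3C15 share a run of 296 bases, and H2AC18 and H2AC19 a run of 299. Short reads from such copies cannot be told apart, and how the authors' alignment placed them is not given in the sources used here. HIST2 regions are therefore uncertain where they fall on such copies. Similar copies also occur on chromosome 6, where the windows of H4C11 and H4C12 are 98.3% identical, with a longest shared run of 126 bases. HIST1 regions can thus be uncertain there too.

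In HIST1 the shRBBP4 library exceeded the shNT library by less than it did elsewhere. Its 226 regions, against 191 in the shNT library, gave a ratio of 1.18 (95% interval 0.972 to 1.44), and all other regions gave 1.47. Relative to those other regions the log2 ratio was -0.31 (interval -0.59 to -0.02). On the rest of chromosome 6 the counts were 1920 for shRBBP4 and 1141 for shNT (ratio 1.68, 1.56 to 1.81). The interval treats regions as independent, although they lie in groups. Regions joined across gaps of up to 1 kb gave 66 shRBBP4 clusters and 58 shNT clusters. Their log2 ratio relative to the rest was -0.28 (-0.81 to 0.25), so the difference was not established for clusters. Nor was it in lists of equal length (-0.26, -0.57 to 0.05) or in the higher-scoring 50% of each list (-0.33, -0.71 to 0.04). The deficit was smaller in clusters and in lists of equal length and larger in the higher-scoring 50%, and the interval was wider in each. Which of these changes ended the call was not tested. HIST1 regions covered 71.8 kb in shRBBP4 and 58.1 kb in shNT (ratio 1.23, against 1.51 elsewhere). HIST2 had 18 and 16 regions (ratio 1.12, 0.542 to 2.36), and its regions covered 5.43 kb in shRBBP4 and 6.20 kb in shNT (ratio 0.877). The HIST2 counts are too small to set apart from the rest.

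**Figure D1:**
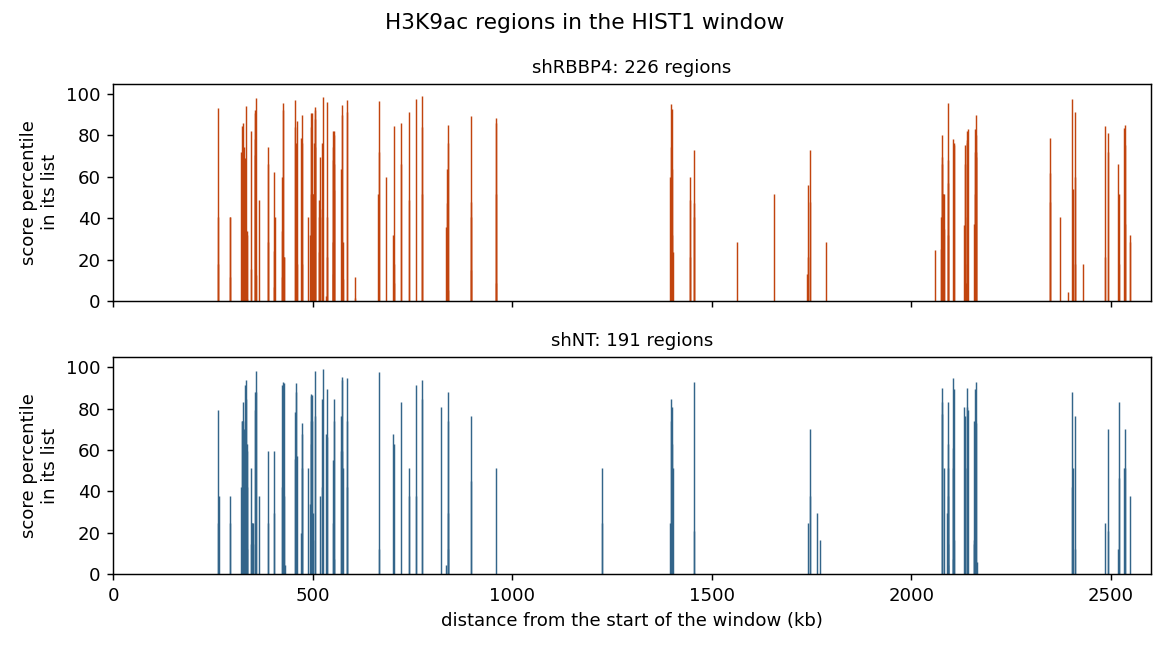
H3K9ac regions of the HIST1 window in shRBBP4 (top, 226 regions) and shNT (bottom, 191 regions). Each line is 1 region, placed by its distance in kb from the window's start, and its height is the percentile of its score in its own list. Of 70 joined clusters, 50 hold regions of both libraries, 14 only shRBBP4 and 6 only shNT regions, with empty stretches between the blocks.

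The HIST1 regions lay in 6 blocks, split where neighbouring regions of both lists were over 100 kb apart. The largest block ran from 25962611 to 26659906 and held 142 shRBBP4 regions and 123 shNT regions (ratio 1.15, 0.900 to 1.48). It also held 21 of the 26 shRBBP4 regions above percentile 90 and 15 of the 18 in shNT. Most HIST1 regions of any score lay there too, 142 of 226 in shRBBP4 and 123 of 191 in shNT. Over the whole lists 9.75% and 10.1% of regions were above percentile 90. The block from 27760959 to 27864393 was the most crowded of the 5 blocks with regions of both libraries, with 36.7 regions per 100 kb in shRBBP4 and 32.9 in shNT. It held 38 and 34 regions (ratio 1.12, 0.685 to 1.83), and its median width was 323 bp for shRBBP4 and 205 bp for shNT regions.

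The smaller blocks held fewer regions. From 27094744 to 27156701 there were 14 shRBBP4 regions and 12 shNT regions, and from 28048402 to 28249688 there were 24 and 15 (ratio 1.60, 0.806 to 3.28). The block from 27264356 to 27487128 held 8 and 5, of which 1 in either library overlapped a region of the other, and its median percentiles were 38.0 and 29.4. A block of 617 bp from 26924850 to 26925466 held 2 shNT regions and none in shRBBP4. The intervals of the ratios of these blocks overlapped each other, so the blocks could not be ranked. Within the largest block, neighbouring bins of 100 kb went either way. From 26000001 to 26100000 there were 32 regions in shRBBP4 and 38 in shNT, in the next 100 kb 34 and 35, and from 26200001 to 26300000 there were 38 and 25.

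HIST1 regions stood closer together than regions elsewhere in both libraries. The median distance between neighbouring midpoints was 631 bp in shRBBP4 (interval 561 to 775) and 671 bp in shNT (624 to 829), against 995 bp (979 to 1016) and 1087 bp (1056 to 1125) for the regions outside both windows. The gap to the next region was at most 1 kb in 160 of 225 cases in shRBBP4 (71.1%, 64.7 to 76.9) and in 133 of 190 in shNT (70.0%, 62.9 to 76.4). Over the whole lists these shares were 56.4% in shRBBP4 and 53.7% in shNT. The intervals of spacing and of these shares treat neighbours as independent, although regions lie in clusters, so they can be too narrow. A joined cluster held 3.42 regions on average in shRBBP4 and 3.29 in shNT, against 2.29 and 2.16 over the whole lists. Within clusters the gaps had a median of 188 bp in both libraries, against 221 and 217 bp over the whole lists. In HIST2 the median spacing was 622 bp in shRBBP4 (320 to 1387) and 752 bp in shNT (574 to 3427).

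**Figure D2:**
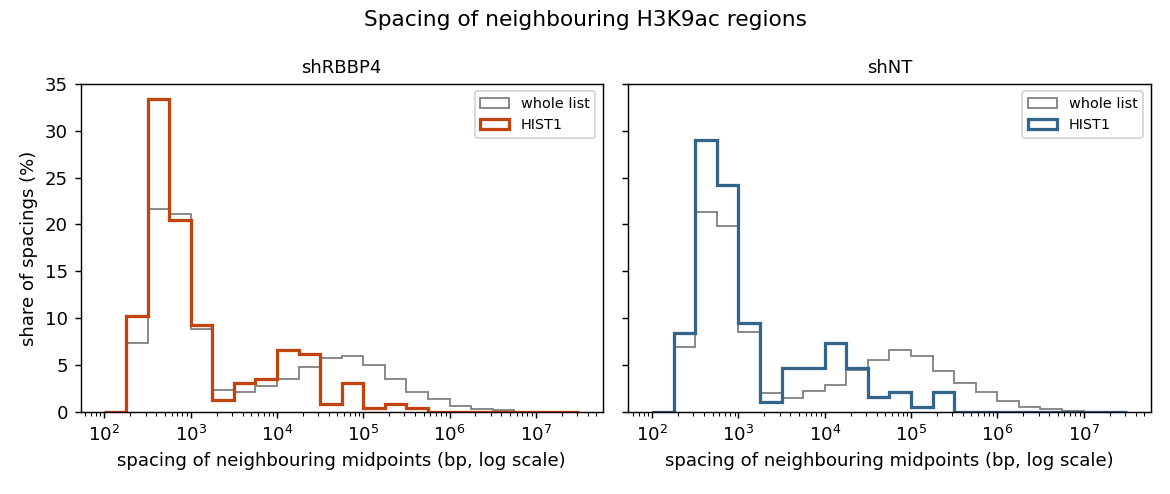
Spacing of neighbouring region midpoints in bp (log axis) in shRBBP4 (left) and shNT (right), as a share of all spacings in percent, for HIST1 (coloured) and the whole list (grey). HIST1 has a larger share of spacings under 1 kb, and its median is 631 bp in shRBBP4, against 671 bp for shNT.

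Windows of similar density elsewhere were less closely spaced. The genome was cut into tiles of 2.6 Mb, and 4 other tiles, on 4 chromosomes, had a total of regions within 25% of that of HIST1. Their median spacing was 760 to 874 bp in shRBBP4 and 963 to 1094 bp in shNT, and their clusters held 2.41 to 3.13 and 2.06 to 2.53 regions. HIST1 was thus closer spaced, with more regions per cluster, than all 4 in both libraries. Spacing and regions per cluster both follow from the gaps between neighbours, so they are not independent measures. With the limit at 50%, 30 tiles on 12 chromosomes were kept, the shortest spacing was 718 bp in shRBBP4 and 793 bp in shNT, and HIST1 again lay beyond all of them in both measures. Those tiles were not equal in density, since 29 of the 30 held fewer shRBBP4 regions than HIST1 and all 30 fewer shNT regions. In lists of equal length, with the limit at 50%, 1 of 25 tiles was closer spaced than HIST1 in shRBBP4 and 0 in shNT. In the higher-scoring 50% of each list 1 of 21 was, in either library.

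The ratio, width and score percentile of HIST1 fell within the range of the 30 tiles. The ratio of 1.18 was lower than in 25 of the 30, whose range was 0.842 to 2.09. It was lower than in 3 of the 4 tiles within 25% and in all 6 when the tiles were shifted by 50% of their length. The median score percentile of HIST1, 53.9 in shRBBP4 and 51.2 in shNT, compared with tile ranges of 40.5 to 61.2 and 37.7 to 62.8. Among 293 tiles of 150 kb with region totals within 25% of that of HIST2, 204 had a higher ratio than the 1.12 of HIST2 and 86 a lower. HIST2 spacing was shorter than in 239 of the 293 tiles in shRBBP4 and than in 171 in shNT.

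**Figure D3:**
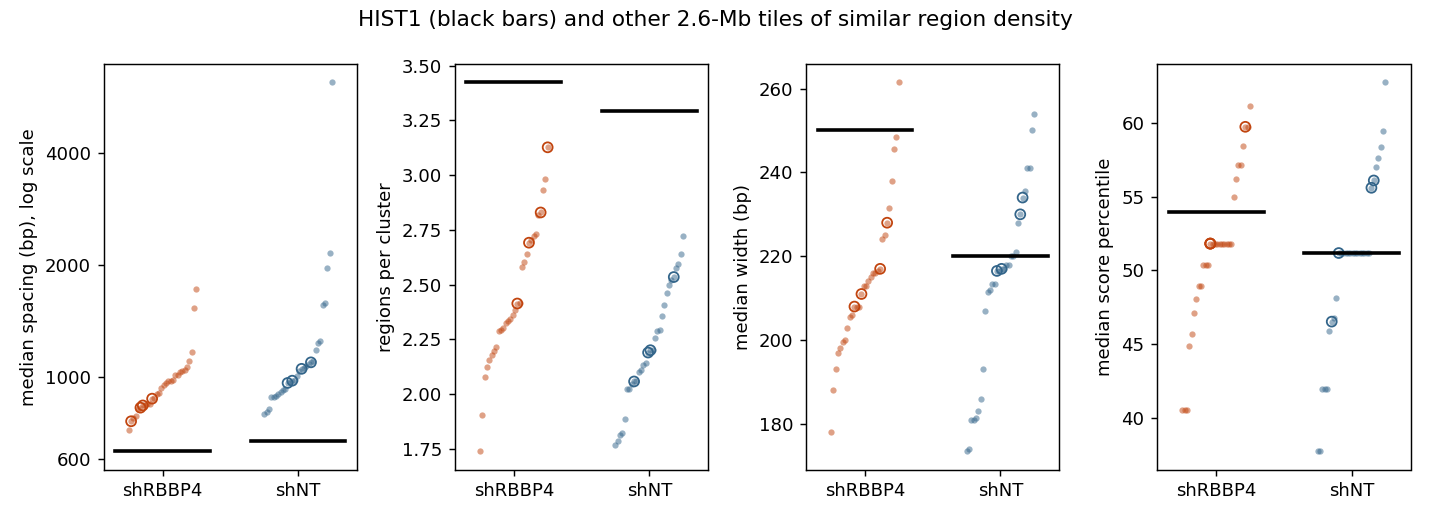
HIST1 (black bars) against 30 other tiles of 2.6 Mb whose region total was within 50% of its own (dots, sorted by value; rings mark the 4 within 25%), in shRBBP4 (left in each panel) and shNT (right). The panels show median spacing in bp (log axis), regions per cluster, median width in bp and median score percentile. The bars lie outside the dots for spacing and regions per cluster, and within them for width and percentile.

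HIST1 regions were not clearly apart in width from regions elsewhere, though in shRBBP4 their median exceeded that of most tiles. Their median was 250 bp (211 to 282) in shRBBP4 and 220 bp (184 to 256) in shNT, against 213 bp (210 to 214) and 210 bp (207 to 212) elsewhere, so the intervals overlapped. Among the 30 tiles, 29 had a smaller median width than HIST1 in shRBBP4 and 19 in shNT. Of the 4 tiles within 25%, all 4 had a smaller one in shRBBP4 (208 to 228 bp) and 2 in shNT (216.5 to 234 bp). Regions wider than 500 bp made up 15.5% of HIST1 regions in shRBBP4 and 14.7% in shNT, close to the 14.5% and 13.3% of the whole lists. The widest shRBBP4 region, from 27804257 to 27806028, was 1772 bp long and stood at percentile 78.1, and 88.5% of its length lay under shNT regions. The widest shNT region, from 26204879 to 26206724, was 1846 bp long and stood at percentile 98.2, and 86.5% of its length lay under shRBBP4 regions. The next widest in shRBBP4, from 26124649 to 26126032, measured 1384 bp, and the widest shNT region it overlapped, from 26124967 to 26126022, measured 1056 bp and lay within it. The median width in HIST2 was 252 bp (168 to 313) for shRBBP4 regions and 264 bp (180 to 516) for shNT regions.

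The score, the authors' own value per region, was used only as a percentile within its own list. Regions above percentile 90 made up 11.5% of HIST1 regions in shRBBP4 (26 of 226, 7.65 to 16.4) and 9.42% in shNT (18 of 191, 5.68 to 14.5), against 9.75% and 10.1% of the whole lists. Their number thus did not stand out, and 1 region in either library was above percentile 99. Regions at or below percentile 10 made up 6.64% in shRBBP4 (3.76 to 10.7) and 7.33% in shNT (4.07 to 11.99), against 10.3% and 9.98%.

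The strongest HIST1 regions were called in both libraries. The highest in shRBBP4, from 26474193 to 26474385, stood at percentile 99.3, and its best shNT counterpart at 93.6. The highest in shNT, from 26224453 to 26225128, stood at 99.2, and the shRBBP4 region inside it, from 26224703 to 26224995, at 98.7, second in that window. A region from 26056820 to 26057178 in shRBBP4, at percentile 97.95, overlapped a shNT region from 26056813 to 26057158, at 98.10, and both ranked 3 in the window for their library. The shRBBP4 regions of rank 4 and 5, from 28103769 to 28104558 and from 26458226 to 26458367, stood at 97.8 and 97.5, against 87.8 and 91.3 for their shNT counterparts. Rank 4 in shNT, from 26365470 to 26365653, stood at 97.7, against 96.8 for its shRBBP4 counterpart. All 5 of the highest regions of each library overlapped a region of the other. Shared regions were the higher in score over the whole lists too, so this count does not set HIST1 apart. Their median percentile there was 68.7 in shRBBP4, against 34.6 for those not shared, and 58.1 in shNT, against 29.4.

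Regions with 1 bp or more in common between the libraries were taken as shared, and in shRBBP4 the shared share was higher in HIST1 than over the whole list. In shRBBP4 154 of 226 were shared (68.1%, 61.6 to 74.2), against 50% of the whole list. In shNT 157 of 191 were (82.2%, 76.0 to 87.3), against 77.0%, which lies inside the interval. These intervals too treat regions as independent and can be too narrow. The shRBBP4 difference ended when the overlap had to reach 50% of both regions, at 32.3% in HIST1 (26.3 to 38.8), against 27.0% of the whole list. A share that high in shRBBP4 was not particular to HIST1: 4 of the 30 tiles had a higher one, up to 81.8%. Of the bases covered in either library, 46.2% were covered in both in HIST1 and 52.7% in HIST2, against 38.4% over the whole lists. Shared regions were the higher in score, with a median percentile of 69.7 in shRBBP4, against 38.8 for those not shared, and of 62.8 in shNT, against 27.1. The same split held over the whole lists, at 68.7 against 34.6 and at 58.1 against 29.4. Regions more than 1 kb from any region of the other library numbered 21 in shRBBP4 (9.29%, against 25.7% of the whole list) and 8 in shNT (4.19%, against 6.24%).

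None of these distant HIST1 regions was above percentile 90, as were 1.08% of the 10114 distant regions of the whole shRBBP4 list and 0.239% of the 1674 of the shNT list, so the count of none does not set HIST1 apart. The highest in shRBBP4, from 28048402 to 28048554, was at percentile 78.7 and lay 55138 bp from the nearest shNT region. The highest in shNT, from 26520831 to 26520971, was at percentile 80.8, with the nearest shRBBP4 region 12564 bp away.

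Joined over both lists, the HIST1 regions formed 70 clusters, of which 50 held regions of both libraries (71.4%, 59.4 to 81.6, against 57.7% of all 18106 clusters), 14 only shRBBP4 regions and 6 only shNT regions. The longest ran over 10.1 kb from 26025291 to 26035412, with 17 regions covering 5101 bp in shRBBP4 and 18 covering 5325 bp in shNT. Its best percentiles were 94.22 and 94.03. The next, from 27857274 to 27864393, held 9 regions in shRBBP4 and 10 in shNT. A cluster from 26194174 to 26200752 held 10 and 13 regions, from 26270006 to 26275316 there were 6 and 6, and from 26122552 to 26127787 there were 8 and 7. These 5 longest clusters thus held similar numbers of regions in both libraries.

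Shared clusters were on the whole covered further in shRBBP4. Of the 50 in HIST1, 40 had more bases covered in shRBBP4 and 10 in shNT (80.0%, 66.3 to 89.97), and the share over all shared clusters was 71.9%. The median ratio of covered bases was 1.29, against 1.33 over all shared clusters. The best percentile was higher in shRBBP4 in 34 of the 50 (68.0%, 53.3 to 80.5), against 63.6%. Both intervals hold the share of the whole lists. Among clusters singled out after their values were seen, that from 28186540 to 28187021 differed most in HIST1, with a best percentile of 84.7 in shRBBP4 and 24.8 in shNT. In the other direction, the cluster from 27155645 to 27156701 stood at 73.0 in shRBBP4 and 92.7 in shNT, and that from 27803862 to 27807654 at 78.1 and 94.9.

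**Figure D4:**
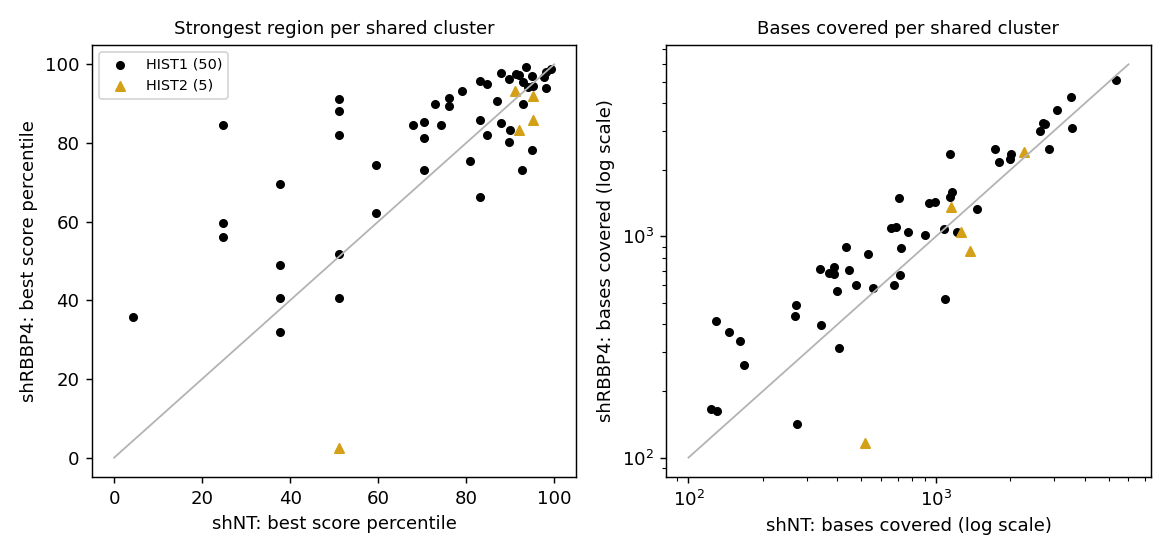
Clusters with regions of both libraries in HIST1 (50, dots) and HIST2 (5, triangles). The left panel gives the percentile of the strongest region and the right panel the bases covered (log axes), with shRBBP4 on the vertical and shNT on the horizontal axis and a line at equality. Of the HIST1 clusters, 34 lie above the line on the left and 40 on the right.

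All 5 HIST2 clusters held regions of both libraries, as did 57.7% of all 18106 clusters. In 4 of the 5 the higher best percentile was in shNT, as in 3802 of all 10454 shared clusters. From 149783094 to 149784923 there was 1 shRBBP4 region at percentile 2.35, against 3 shNT regions that reached 51.2. From 149815063 to 149817217 there were 2 regions in shRBBP4, reaching 83.2, and 3 in shNT, reaching 92.1. From 149820494 to 149821874 there were 2 in either library, reaching 91.8 in shRBBP4 and 95.1 in shNT. These 3 clusters also had fewer bases covered in shRBBP4 (116, 857 and 1046 bp) than in shNT (517, 1373 and 1259 bp). Of all 10454 shared clusters, 2914 had more bases covered in shNT. With 5 clusters, a direction is described here and not tested.

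The longest HIST2 cluster, 4.66 kb from 149856045 to 149860708, held 10 regions in shRBBP4 and 6 in shNT over nearly equal covered lengths, 2399 and 2261 bp. The libraries differed in where its strongest regions lay. The highest shNT region of the window, from 149857311 to 149858174, stood at percentile 95.3, while the 2 shRBBP4 regions inside it stood at 6.17 and 23.8. The highest shRBBP4 region of the cluster, from 149856618 to 149856927 at percentile 85.9, overlapped no shNT region, and the nearest lay 73 bp away. No region of either library lay in the 34.2 kb before this cluster.

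**Figure D5:**
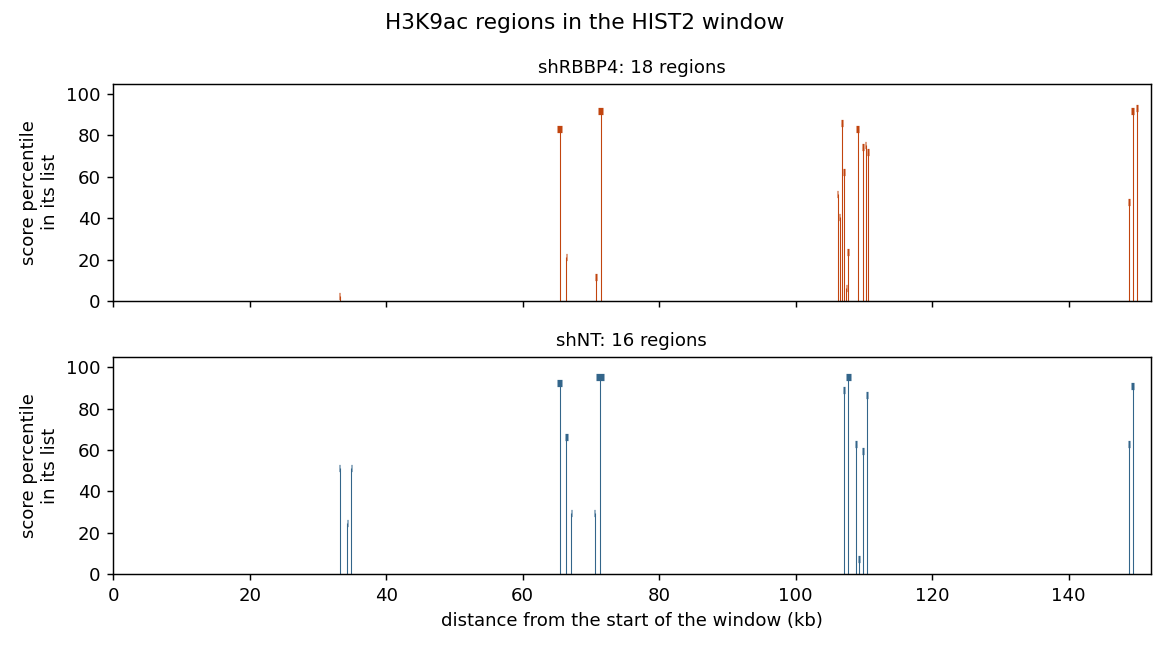
H3K9ac regions of the HIST2 window in shRBBP4 (top, 18 regions) and shNT (bottom, 16 regions), by distance in kb from the window's start. Bars give each region's extent and, by their height, the percentile of its score in its own list. The 5 joined clusters hold regions of both libraries, and near 107 kb the highest bar stands at different places.

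The last HIST2 cluster, from 149898719 to 149900586, reaches past the window's edge. It held 4 shRBBP4 regions that reached percentile 93.3 and 3 shNT regions that reached 91.0. Over the shRBBP4 regions with an overlapping shNT region, the percentile minus that of the best counterpart had a median of 0.23 in HIST1 and of -14.8 in HIST2, against 2.74 over the whole lists. It was above 0 for 79 of 154 regions in HIST1 (51.3%, 43.1 to 59.4) and 4 of 15 in HIST2 (26.7%, 7.79 to 55.1), against 56.2% of 19669 over the whole lists. The HIST1 interval holds that share, and the HIST2 interval, from regions in 5 clusters, ends just below it. Lists of unequal length give percentiles different meanings, so these values cannot be read as a difference in acetylation.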

How the data were processed

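H3K9ac ChIP-seq of T98G cells was used from 1 shRBBP4 and 1 shNT library. The inputs were not used here. Each deposited list gives chromosome, start, end, name and a score per region, 1 list per library. The score is the authors' own value, on a scale that the deposited files do not state. Per the file headers, the lists' names include macs2 and PE. Per the submitters' processing notes, bcl2fastq 2.15.0, BWA, Picard and SICER were among the tools and hg19 the build, but their roles, the caller's threshold and any use of the input remain not given in the sources used here.

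From these, percentiles of score within each list (tied scores share their mean rank), widths, spacing, overlaps and clusters (gaps of up to 1 kb) were computed, with Clopper-Pearson intervals for shares, the exact conditional interval for count ratios and order-statistic intervals for medians, all at 95%. The ratio of the other regions was taken as fixed. Intervals computed over regions treat them as independent, although regions lie in clusters. Tiles started at the first base of a chromosome. Functions were tested on simulated lists. With 1 library per group no p-value was computed. The windows, lists and measures were chosen with earlier results of these data known. Named regions are the 5 highest-scoring, the 5 widest and those of the 5 highest-scoring without a counterpart in each window, and the 5 longest clusters, given in part. Alternatives were list length, score limit, joining, overlap rule, window edges, covered length, width ranks and tile choice. Promoter sequences are RefSeq's, 61 of 66 histone genes matched, and the first window listed was used for the 4 genes with several. Calculations ran in Python 3.11.15 with scipy 1.17.1, pandas 2.3.3 and numpy 2.4.6, and plots in matplotlib 3.10.9.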

Additional observations from a re-analysis of the deposited data

How the results depend on the processing

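No paired analysis was possible because either shRNA came with a single library. Unknown depth limits each comparison of region number and percentile. Of 106 values under alternatives, 81 kept their side or stayed within the interval of the reported value, 22 moved and 3 lost the call. Some of the 81 could not change, as the shNT list is the shorter and is not cut in lists of equal length. Others are HIST2 values with wide intervals, such as a ratio of 0.8125 in lists of equal length, against 1.125. The count of 81 is thus no measure of stability. In lists of equal length, where the shRBBP4 list is cut, the HIST1 ratio was 0.838 and its log2 value relative to the rest -0.26. Its shared share was then 76.2% in shRBBP4 and 70.2% in shNT, against 60.9% and 67.2% over all regions of those lists. In shRBBP4 its median width was then 314 bp and its spacing 944 bp. The log2 value was -0.33 in the higher-scoring 50% of each list and -0.28 in clusters, which leave fewer items by construction. In that 50%, median width was 336 bp in shRBBP4 and 290 bp in shNT, spacing 1036 and 1066 bp, and the percentile 76.5 and 74.2. With reciprocal overlap of 50%, which ends the shRBBP4 difference from the whole list (27.0%), the shared share was 32.3% in shRBBP4 and 38.2% in shNT in HIST1 and 50% in either in HIST2. Within 1 kb it was 90.7% and 95.8% in HIST1, against 74.3% and 93.8% of the whole lists, and 100% in shRBBP4 in HIST2. The share of tiles with a lower ratio than HIST1 was 25% of 4 tiles, 0% of 1 at 10% tolerance and 0% of 6 shifted tiles. Splitting at 50 kb gave 12 HIST1 blocks and at 200 kb 3. The tile comparisons of spacing and clusters in shortened lists were chosen after seeing the data.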
